A study of Drosophila melanogaster with 2 samples.

Results

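Mid-range peaks of the circadian activator Clock (Clk), mapped by chromatin immunoprecipitation and sequencing (ChIP-seq) in whole adult Drosophila melanogaster, lay beyond promoters but still near a gene start. They were the regions of the authors' reproducible list on build dm6 whose summit lay more than 500 and up to 2000 bp from the nearest annotated transcription start site of any gene. The mid-range peaks numbered 485, or 19.7% of the list (95% exact binomial interval 18.1 to 21.3). The others were 1584 promoter peaks, within 500 bp of a start site, and 395 distal peaks, beyond 2000 bp. The members were chosen by distance alone, so their distance to a start site is a description and not a result.

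The study held 1 group of 2 biological replicates, adult male flies of unknown age from a transgenic line that stably carried Clk fused at its C-terminus to green fluorescent protein. No other genotype, treatment or time was compared, the hour of collection is unknown, and control data were not used here. The description names an antibody against the fluorescent protein, while the antibody field names Clk, and chromatin was sheared by sonication to a stated size range of 200 to 800 bp. Whole animals were used, so signal from clock cells and from all other cells cannot be told apart.

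Clk belongs to the basic helix-loop-helix factors. Together with its partner Cycle it activates per, tim, vri, Pdp1 and cwo through E-box sequences, of which CACGTG is the textbook form. The products of these genes feed back on Clk or on its activity and so keep the daily rhythm. In Drosophila many genes have long introns close to their starts, and these introns often hold enhancers.

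The genomic sequences around the summits of the strongest mid-range peaks are shown first, for what such summits hold and whether the E-box form CACGTG is among it. They are 6 of the 8 strongest, and the windows at Adf1 and HmgZ are not shown. Each runs 5′ to 3′ over 50 bp to each side of the summit in the RefSeq Release 6 assembly, which is build dm6. Capitals mark CACGTG and CGATAG, and also ACAGTG and ACTGTA and the related CTGTAC, on either strand, the sequences that the comparisons below turn on. None of these 6 windows held CACGTG or CGATAG. Other E-box forms are not marked. The window in Lk6 held TACAGTG, which joins ACAGTG with the reverse complement of ACTGTA, and that in CG9663 held the reverse complement of ACTGTA.
CG11050 (chr2L:6612660-6612760, + strand): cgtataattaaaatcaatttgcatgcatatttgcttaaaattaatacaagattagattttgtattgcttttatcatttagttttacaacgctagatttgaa
Lk6 (chr3R:11761001-11761101, + strand): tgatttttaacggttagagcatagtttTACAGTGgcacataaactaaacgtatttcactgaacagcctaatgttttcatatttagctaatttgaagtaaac
Trl (chr3L:14759452-14759552, + strand): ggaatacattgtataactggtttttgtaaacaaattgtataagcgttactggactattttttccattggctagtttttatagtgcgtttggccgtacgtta
cbt, in an intron of ush (chr2L:480985-481085, + strand): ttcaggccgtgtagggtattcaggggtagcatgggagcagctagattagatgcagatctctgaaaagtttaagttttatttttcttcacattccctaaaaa
CG9663 (chr2L:3302122-3302222, + strand): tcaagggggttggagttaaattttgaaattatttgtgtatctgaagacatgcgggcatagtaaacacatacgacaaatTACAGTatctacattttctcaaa
vri (chr2L:5301338-5301438, + strand): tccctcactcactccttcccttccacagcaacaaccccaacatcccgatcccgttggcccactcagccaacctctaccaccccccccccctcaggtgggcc

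The E-box form CACGTG lay within 50 bp of the summit in 5 mid-range peaks, and 4 of these are shown with it in capitals. They lay near brk, a repressor gene of the BMP pathway, and in introns of Pdp1, the clock activator gene, B4 and CG5151.
brk, in an intron of CG1677 (chrX:7306788-7306888, + strand): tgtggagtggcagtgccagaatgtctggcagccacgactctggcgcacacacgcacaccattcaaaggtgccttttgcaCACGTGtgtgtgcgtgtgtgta
Pdp1 (chr3L:7833786-7833886, + strand): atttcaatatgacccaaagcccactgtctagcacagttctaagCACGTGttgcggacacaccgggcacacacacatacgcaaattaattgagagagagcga
B4 (chr2L:13548342-13548442, + strand): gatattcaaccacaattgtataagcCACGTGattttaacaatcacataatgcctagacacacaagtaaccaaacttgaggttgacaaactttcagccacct
CG5151 (chr3L:16147846-16147946, + strand): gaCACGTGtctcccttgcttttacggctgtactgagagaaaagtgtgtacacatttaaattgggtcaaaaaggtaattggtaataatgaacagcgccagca
The 7-mer CACTGTA contains ACTGTA and the reverse complement of ACAGTG. It is shown in 5 mid-range windows besides that of Lk6, with those 6-mers and CTGTAC in capitals. These windows were chosen after the counts were seen, and stronger windows with the 7-mer may have been left out.
bbx (chrX:21366557-21366657, + strand): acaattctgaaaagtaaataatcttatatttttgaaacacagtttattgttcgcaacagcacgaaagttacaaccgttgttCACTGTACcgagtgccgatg
Marf (chrX:6366428-6366528, + strand): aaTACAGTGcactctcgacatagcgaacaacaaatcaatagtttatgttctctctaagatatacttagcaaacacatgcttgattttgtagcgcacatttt
CG33080, intergenic (chrX:5718810-5718910, + strand): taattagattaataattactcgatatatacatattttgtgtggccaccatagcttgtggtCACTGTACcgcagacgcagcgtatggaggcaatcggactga
Csk (chr3R:11649644-11649744, + strand): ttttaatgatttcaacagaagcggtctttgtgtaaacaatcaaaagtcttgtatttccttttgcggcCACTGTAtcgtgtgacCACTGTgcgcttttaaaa
Cdep (chr3R:4912365-4912465, + strand): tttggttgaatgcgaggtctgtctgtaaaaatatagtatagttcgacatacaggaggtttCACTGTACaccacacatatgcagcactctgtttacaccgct
For contrast, 2 strong promoter peaks carried TATCGATA, the DNA replication-related element bound by the promoter factor DREF, which no mid-range window held. Capitals mark TATCGATA and CGATAG.
CG7369, promoter peak (chr3L:22741659-22741759, + strand): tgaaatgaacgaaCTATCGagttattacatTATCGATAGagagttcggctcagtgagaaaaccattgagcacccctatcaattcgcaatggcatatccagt
RpL28, promoter peak (chr3L:3222974-3223074, + strand): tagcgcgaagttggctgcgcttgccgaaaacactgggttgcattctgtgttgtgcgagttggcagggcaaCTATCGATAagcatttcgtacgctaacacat

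The mid-range peaks thinned out with distance from the start site. Their summits lay 507 to 1998 bp from it, with a median of 970 bp and quartiles of 699 and 1310 bp. The 3 successive 500 bp bands held 257, 137 and 91 peaks. Per Mb of genome at the same distance these were 19.1, 13.1 and 10.7 peaks, against 87.3 within 500 bp and 4.74 beyond 2000 bp. The whole mid-range band made up 24.2% of the genome, so its 19.7% of peaks was 0.814 times its share of the genome. Among the 30000 pooled candidate regions that the authors supplied as input for their reproducibility step, those weaker than the reproducible peaks had 8381 summits in the band, or 30.4%, which was 1.26 times its share.

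**Figure D1:**
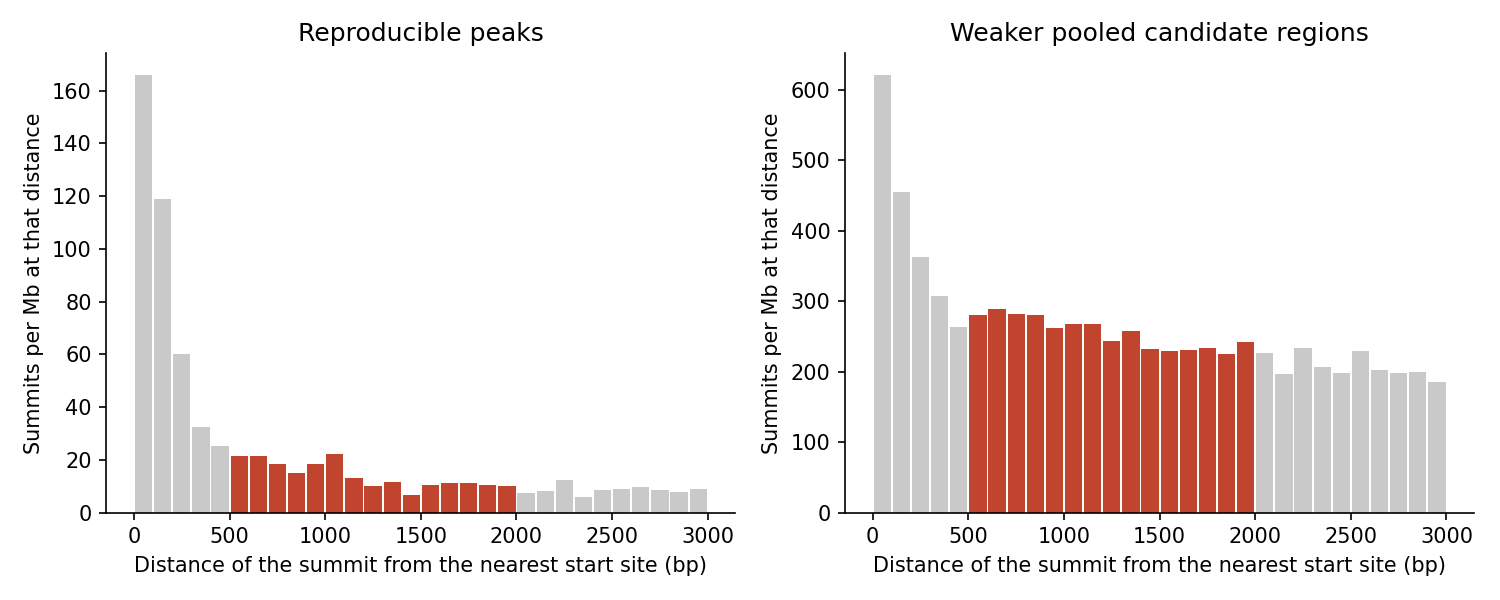
Summits per Mb of genome in 100 bp steps of distance from the nearest start site, up to 3000 bp, for the reproducible peaks (left) and for the weaker pooled candidate regions (right), with mid-range steps in red. The reproducible peaks fell from 166 per Mb in the first step to 21.6 in the first mid-range step and 10.2 in the last, while the weaker candidates went from 280 to 242 per Mb over the same mid-range steps.

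The limits of the band cut through a continuous run of peaks. Just inside the lower limit were peaks in introns of aru (507 bp, signal 317) and bin3 (507 bp, signal 171), and just outside it were peaks near t-cup (500 bp, signal 115) and lncRNA:CR44619 (497 bp, signal 294). Just inside the upper limit were peaks near unc-119 (1998 bp, signal 155) and in Orai (1995 bp, signal 73.0), and just outside it peaks near asRNA:CR44358 (2015 bp, signal 79.7) and tna (2021 bp, signal 94.3). The signal is the authors' value for each peak, on a scale that depends on the library.

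By arm, 95 mid-range peaks lay on 2L, 92 on 2R, 93 on 3L, 126 on 3R and 79 on X. Their density ranged from 14.1 per Mb of mid-range sequence on X to 16.4 on 3R. Chromosome 4 had none, and its mid-range sequence was 0.833% of the total.

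Most mid-range peaks lay in introns. Of 485 summits, 365 or 75.3% (71.2 to 79.0) were intronic, against 35.3% of genome positions and 43.8% of weaker candidate summits at the same distances. Coding exons made up 29.6% of positions and held 30.4% of the weaker candidates, but only 9 mid-range peaks, or 1.86% (0.852 to 3.49). Intergenic DNA held 67 peaks, or 13.8% (10.9 to 17.2), against 22.8% of positions and 14.7% of weaker candidates, the latter within the interval. Another 17 lay in 5′ UTRs, 10 in 3′ UTRs and 17 in exons of noncoding RNAs. A high intronic share was not particular to mid-range peaks. Distal summits were intronic in 79.5% (75.2 to 83.4), against 49.7% of positions and 59.3% of weaker candidates at their distances. Coding exons held 2.03% of distal summits and 16.3% of the weaker candidates there. The classes were not tested against each other for place. The intervals cover counting error over peaks only. Neighbouring peaks share sequence and chromatin and are not replicates.

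**Figure D2:**
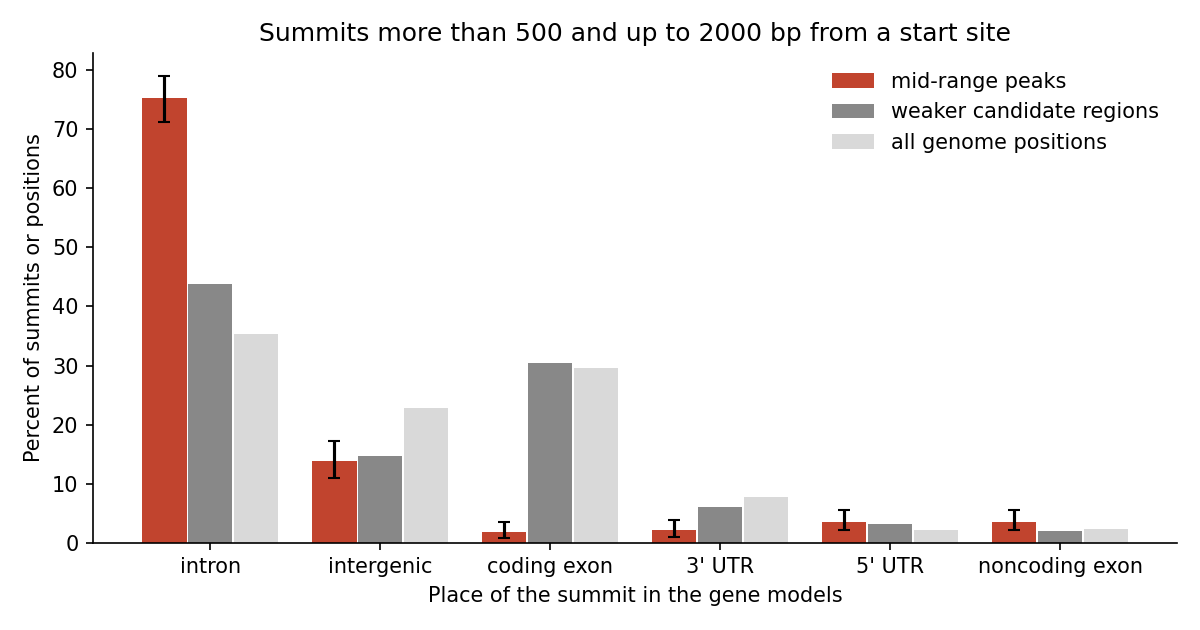
Percent of summits or positions by place in the gene models, for mid-range peaks (red, with 95% exact binomial intervals), weaker pooled candidate regions in the same distance band (dark grey) and all genome positions in the band (light grey). Introns held 75.3%, 43.8% and 35.3%, and coding exons 1.86%, 30.4% and 29.6%.

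The share of introns in the band fell with candidate strength. It was 75.3% in the reproducible list, 70.2% in the candidates next in rank, taken in an equal number, and 58.3% and 51.2% in the sets after that. In the weakest of these 12 sets it was 33.3%, close to the 35.3% of genome positions. Depth was unknown, so how far weak candidates were background is not measured.

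Many summits lay in a first intron of the gene whose start was nearest. In 224 peaks, or 46.2% (41.7 to 50.7), the summit lay in the first intron of a transcript from that start site, against 31.4% (26.8 to 36.2) of distal peaks. The count includes summits that also lie in an exon of another transcript, such as that in spen. Distal peaks lie farther from a start by definition, and the share of genome positions in such introns was not measured. The summit lay inside the gene of the nearest start site in 360 cases, or 74.2%. Of these, 91 lay upstream of the nearest start but inside the same gene, between alternative starts. A further 42 lay upstream and inside another gene, and 59 lay upstream in intergenic DNA. The 293 downstream summits were 60.4% of the total, and 60.7% of genome positions in the band were downstream.

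The 9 coding-exon summits included 3 in heat shock genes, named after their values were seen: Hsp26, Hsc70-4 and Hsp83, all chaperone genes. The Hsp26 peak had signal 129, 101 in replicate 1 and 28.5 in replicate 2. Another coding-exon summit lay in eEF1alpha1, which encodes a translation elongation factor, and the other 5 lay in CG3281, Tab2, Kcmf1, aqz and Orai. None of the 9 had a rank better than 920 in the list.

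Mid-range peaks ranged widely in strength and were on the whole weaker than promoter peaks. Their signal ran from 72.4 to 1874, with a median of 102, against 115 for promoter peaks and 99.9 for distal peaks. Replicate by replicate, the nearest candidate within 150 bp had a median signal of 68.0 in replicate 1 and 39.2 in replicate 2. The replicates are on different scales, with a median ratio of 1.82, so they are compared by rank. Of the 485 peaks 214, or 44.1%, ranked in the stronger part of the list when it was split at its middle rank. For promoter peaks this was 54.2%, a difference of -10.0 percentage points (-15.0 to -4.96, Fisher's exact test, two-sided, adjusted over 2 comparisons p = 2.39e-04). For distal peaks it was 40.5%, a difference of 3.62 points with an interval of -2.95 to 10.1 that includes 0 (Fisher's exact test, adjusted p = 0.304). These p-values cover counting over peaks, not differences between animals.

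Among the mid-range peaks themselves, the 192 upstream of the nearest start had a median signal of 110 and the 293 downstream 99.5. The 184 peaks whose nearest gene also had a promoter peak had a median of 108, and the other 301 had 99.6. In the 3 distance bands the medians were 106, 95.7 and 107, with no steady fall. Intronic and intergenic peaks both had a median of 103, and the 9 in coding exons 86.2.

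The list had been selected by the authors for agreement between these same replicates, so the level of support in both is largely fixed by that step and is given as a description. The tests between classes below hold only within that selected list. They did not adjust for strength, in which mid-range and promoter peaks differed. A candidate of any rank lay within 150 bp in both replicates for 469 peaks, or 96.7%, where all reproducible peaks had 97.3%. The exceptions were 5 peaks without one in replicate 1 and 11 in replicate 2. The median distance between the summits of the replicates was 32.0 bp. When only the strongest candidates of each replicate were used, as many as the reproducible list holds, 315 peaks or 64.9% had one in both replicates, where the whole list had 68.8%. Promoter peaks had 71.3%, a difference of -6.33 points (-11.2 to -1.62, Fisher's exact test, adjusted p = 0.0186), and distal peaks 63.3%, a difference of 1.66 points (-4.68 to 8.02, adjusted p = 0.621). The difference from promoter peaks was not called with either replicate alone (-3.56 and -4.58 points, exact test, adjusted p = 0.0690 and 0.0656), with start sites of protein-coding genes (-5.40 points, adjusted p = 0.0630) or in the stronger part of the list (-1.29 points, adjusted p = 0.455). With the strongest 5000 candidates the shares were 92.6% and 92.4%. Over the 469 peaks the log2 signals of the replicates correlated with Pearson r = 0.706 and Spearman rho = 0.541, a description across peaks of the same 2 libraries.

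**Figure D3:**
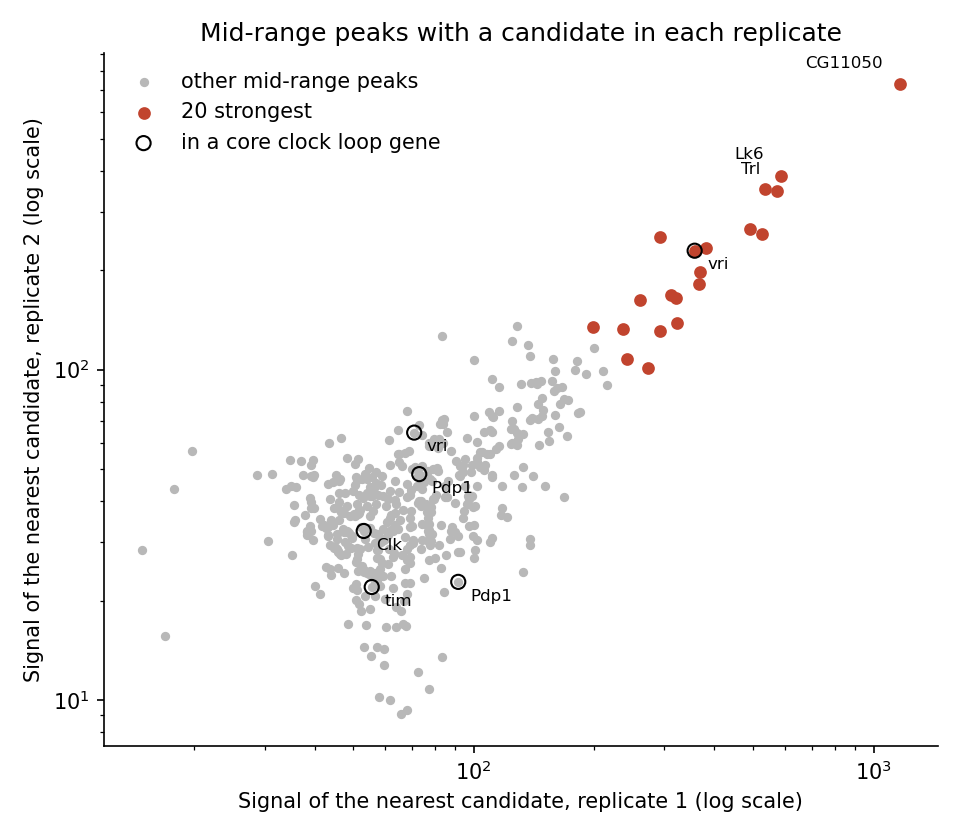
Signal of the nearest candidate region in replicate 1 against replicate 2, both on log scales, for the 469 mid-range peaks that had one within 150 bp in both. Red points are the 20 strongest, black circles the peaks in core clock loop genes. CG11050 stands highest in both replicates (1162 and 729), and among the clock genes only the stronger vri peak (357 and 229) lies among the strongest 20.

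The strongest mid-range peak was also the strongest of the whole list and lay in an intron of CG11050 on chromosome 2L (6612367 to 6612975, 1023 bp downstream of the start), with signal 1162 in replicate 1 and 729 in replicate 2. It ranked 1 in both replicates. The next lay in an intron of Lk6, the kinase gene whose product phosphorylates the translation initiation factor eIF4E (chromosome 3R, 11760864 to 11761262, 972 bp upstream of the nearest of its start sites), with 586 in replicate 1 and 386 in replicate 2. Both replicates placed it among their strongest 5 candidates.

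The next 3 lay at genes of transcription factors. Trl, which encodes GAGA factor, had 575 and 348 in the replicates at a summit 1540 bp upstream of the nearest start and inside the gene (chromosome 3L, 14759315 to 14759730). Adf1, the gene of a Myb-related activator, had 534 and 351 at a summit in its first intron (chromosome 2R, 6662858 to 6663240). The peak 1347 bp upstream of cbt, the gene of the zinc finger factor cabut, lay in an intron of ush, a GATA cofactor gene (chromosome 2L, 480898 to 481275), with 527 and 258. All of these lay among the strongest 20 candidates of each replicate.

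Further down were chromatin and signalling genes. HmgZ, which neighbours and overlaps HmgD and like it encodes a high mobility group protein, had 490 and 266 (chromosome 2R, 21703115 to 21703671). In spen, which encodes an RNA-binding transcriptional regulator, the peak lay in a 5′ UTR with 293 and 252. The phospholipase C gene of phototransduction, norpA, had 366 and 181 in its first intron (chromosome X, 4324835 to 4325160).

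The remaining peaks of the strongest 20 with a candidate in each replicate included genes of cyclic GMP signalling and of small RNAs. The first intron of foraging (for), the cyclic GMP-dependent protein kinase gene, had 292 and 131. The peak upstream of mlt lay in an intron of the potassium channel gene KCNQ and had 323 and 138. In lncRNA:let7C, the precursor of let-7 and other microRNAs, the values were 199 and 135. The others lay near or in CG9663, vri, CG32772, lncRNA:CR45054, CG4496, lncRNA:CR44619, lncRNA:CR45643, MYPT-75D and DNAlig3. Of the 20, 15 were intronic, 14 lay inside the gene of the nearest start and 13 had a promoter peak at that gene as well. The lowest rank among them was 153 in replicate 1 and 206 in replicate 2, and the summits of the candidates lay at most 54 bp from the list's summit.

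Whether another peak stood nearby depended on the distance counted, and the classes were not tested against each other. Within 500 bp another summit of the list lay beside 57 of 485 mid-range, 190 of 1584 promoter and 51 of 395 distal peaks, shares of 11.8%, 12% and 12.9%. Within 1000 bp the shares were 23.5%, 18.2% and 21.8%. Within 2000 bp, the limit that also chose the members, another summit lay beside 207, or 42.7% (38.2 to 47.2), against 27.3% (25.1 to 29.5) of promoter peaks and 34.9% (30.2 to 39.9) of distal peaks. In 52 cases the regions overlapped, and 46 overlapped another mid-range peak, so that their values are not separate measurements of separate sites. By nearest start site or surrounding gene, 414 genes had 1 mid-range peak and 60 had 2, and the 5 genes with the most were CHES-1-like with 5 peaks and HmgD, HmgZ, lncRNA:CR45054 and Paip2 with 4 each. The 4 peaks of HmgD and HmgZ were the same ones. In CHES-1-like, the gene of a forkhead factor, the strongest peak ranked 150 in the list. The 4 peaks of Paip2, which encodes a regulator of poly(A)-binding protein, ranked 598 or lower and lay within a gene of 4697 bp without a promoter peak. The Lk6 peaks of ranks 4 and 1074 shared their left boundary, with summits 200 bp apart.

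Clock genes held several mid-range peaks. Of 7 core clock loop genes, vri, Pdp1, Clk and tim had at least 1, and each of them had a promoter peak too. Over all 13945 protein-coding genes 425, or 3.05%, had a mid-range peak by nearest start or surrounding gene. Long genes offer more sequence, and the share was 0.822% of genes of 5000 bp or less and 9.74% of the 3482 longer ones. Of the 7 clock loop genes 6 were longer than 5000 bp. The lists are small and were drawn up with earlier results known, so their counts are given without a test.

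vri, whose bZIP product represses Clk, had the strongest of these peaks, with 357 in replicate 1 and 229 in replicate 2 (chromosome 2L, 5301144 to 5301610, in its first intron 1741 bp from the start). It ranked 36 and 26 in the replicates. A weaker intronic peak of vri (5306525 to 5306944) had 71.0 and 64.5.

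Pdp1, whose bZIP product activates Clk, had an intronic peak with the E-box shown above (chromosome 3L, 7833800 to 7833916) with 73.1 and 48.3. The E-box ended 2 bp from the summit, but the candidate of replicate 2 lay 134 bp away from it. Another Pdp1 peak, in a 5′ UTR (7854820 to 7855239), had 91.5 in replicate 1, rank 802, and only 22.8 in replicate 2, rank 3958.

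The mid-range peak in Clk itself was intronic (chromosome 3L, 7773528 to 7773947) and had 53.1 and 32.5, ranks 2036 and 2023. The transgene was made from Clk, and the part of extra copies of this gene in the value was not tested. In tim, which encodes the partner of Period, the peak lay in an intron (chromosome 2L, 3504896 to 3505315) near a small nucleolar RNA start and had 55.6 and 22.0. It ranked 1887 in replicate 1 and 4198 in replicate 2, so it was outside the strongest candidates of the latter. The per and cwo genes, with cyc, had none in this distance band.

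Of 17 clock regulator genes 4 had a mid-range peak. They were dco, the casein kinase gene known as doubletime (73.1 and 67.9), kay, the Fos gene (85.7 and 64.8 at the stronger of 2), and the protein phosphatase 2A subunit genes mts (70.1 and 33.7) and wdb (56.2 and 44.0). All 5 of these peaks were intronic. Neither dco nor kay had a promoter peak. Of the 17 genes 14 were longer than 5000 bp, and 9.74% of all protein-coding genes of that length had a mid-range peak.

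Of 15 clock output and sleep genes found in the annotation, 11 were longer than 5000 bp and 3 had a mid-range peak. Lk6 had 3, the stronger described above and weaker ones with 69.7 and 43.1 and with 68.0 and 45.2 in the replicates. For cbt a second peak, in a 5′ UTR, had 100 and 107, so replicate 2 was the higher despite its lower scale. CrebB, the gene of a cyclic AMP response factor, had 2 intronic peaks of ranks 1037 and 1122 and no promoter peak.

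Hormone, growth and metabolic genes were also represented. Of 14 ecdysone response genes 6 had a mid-range peak, where 3 of 14 had a promoter peak, and 13 of the 14 were longer than 5000 bp. They included the receptor gene EcR (116 and 88.4 in the replicates at the stronger of 2) and the early response genes br (74.3 and 30.6) and Eip74EF (66.0 and 27.4). Of 14 insulin and TOR genes 4 had one, namely the insulin receptor gene InR (128 and 136), the kinase gene Akt (61.5 and 61.2), foxo (70.2 and 50.1) and Thor (57.2 and 14.5). The Thor value of replicate 2 ranked 9930. Among 10 lipid genes 4 had one, with the lipase gene bmm the strongest (111 and 31.0). FASN1, a fatty acid synthase gene, had 60.4 and 38.7 and Lpin 62.0 and 36.4, while Lsd-2 had 90.3 in replicate 1 and no candidate within 150 bp in replicate 2. Of the insulin and TOR genes 8 were longer than 5000 bp, and of the lipid genes 7. Of all protein-coding genes that long 9.74% had a mid-range peak.

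Transcription factor lists gave similar shares. In the order below, 14 of 18 and 12 of 13 of their genes were longer than 5000 bp. Of all protein-coding genes that long 9.74% had a mid-range peak. Of 18 basic helix-loop-helix genes 5 had a mid-range peak: tai, a steroid receptor coactivator gene (131 and 90.5), SREBP (92.2 and 47.6), crp (87.4 and 30.7), Mnt (60.9 and 40.5) and Myc. The Myc peak had 64.2 in replicate 1, and the nearest candidate of replicate 2 lay 324 bp away. Of 13 BTB zinc finger and related genes 5 had one, Trl (described above), fru (77.7 and 46.6), br, mod(mdg4) (45.3 and 48.0) and psq (68.1 and 9.32). For psq the value of replicate 2 ranked 24412, near the bottom of its 30000 candidates.

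In signalling pathways the counts ran from 4 of 11 BMP and TGF-beta genes and 3 of 12 EGFR and Ras genes to 2 of 10 Notch genes, 0 of 10 Wnt genes and 0 of 9 Hippo genes. In that order the lists held 7, 11, 7, 9 and 6 genes longer than 5000 bp, and 9.74% of all such genes had one. Near brk, the repressor gene of the BMP pathway, the values were 138 and 30.8, and those in the receptor gene tkv were 54.2 and 42.3. The adaptor gene drk had 172 and 80.9, the highest among the EGFR and Ras genes, and the kinase gene Raf had 99.6 and 38.5 at the stronger of 2 peaks. All 3 EGFR and Ras genes with a mid-range peak lacked a promoter peak, as did 262 of all 425 protein-coding genes with a mid-range peak. In the Notch list, neur had 54.2 and 38.6 and mam 54.1 and 24.2.

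Heat shock genes had a mid-range peak in 5 of 12, and 1 of the 12 was longer than 5000 bp. The cochaperone gene stv had 110 and 55.5 and Hsp26 101 and 28.5. Hsp83 had 2 peaks, of 65.7 and 9.07 and of 54.8 and 50.3 in the replicates, so their order differed between replicates. Of 14 RNA-binding regulator genes 5 had one, led by brat (153 and 64.6), mub (154 and 60.7) and Rbp9 (83.2 and 70.3), and all 14 were longer than 5000 bp.

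The chromatin, immune and oxidative stress lists held 5 such genes. Of 14 Polycomb and trithorax genes 2 had one, osa (171 and 63.0 at the stronger) and kis (76.8 and 32.5), of 14 immune genes Stat92E (114 and 57.5) and Dif (64.7 and 65.8), and of 7 oxidative stress genes cnc (47.5 and 32.3). In these lists, in that order, 11, 10 and 3 genes were longer than 5000 bp. None of 8 homeotic genes and none of 10 ion channel genes in the list had a mid-range peak. All of these were longer than 5000 bp, and 9.74% of such genes had one, so a count of 0 in lists this small is near that share.

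**Figure D4:**
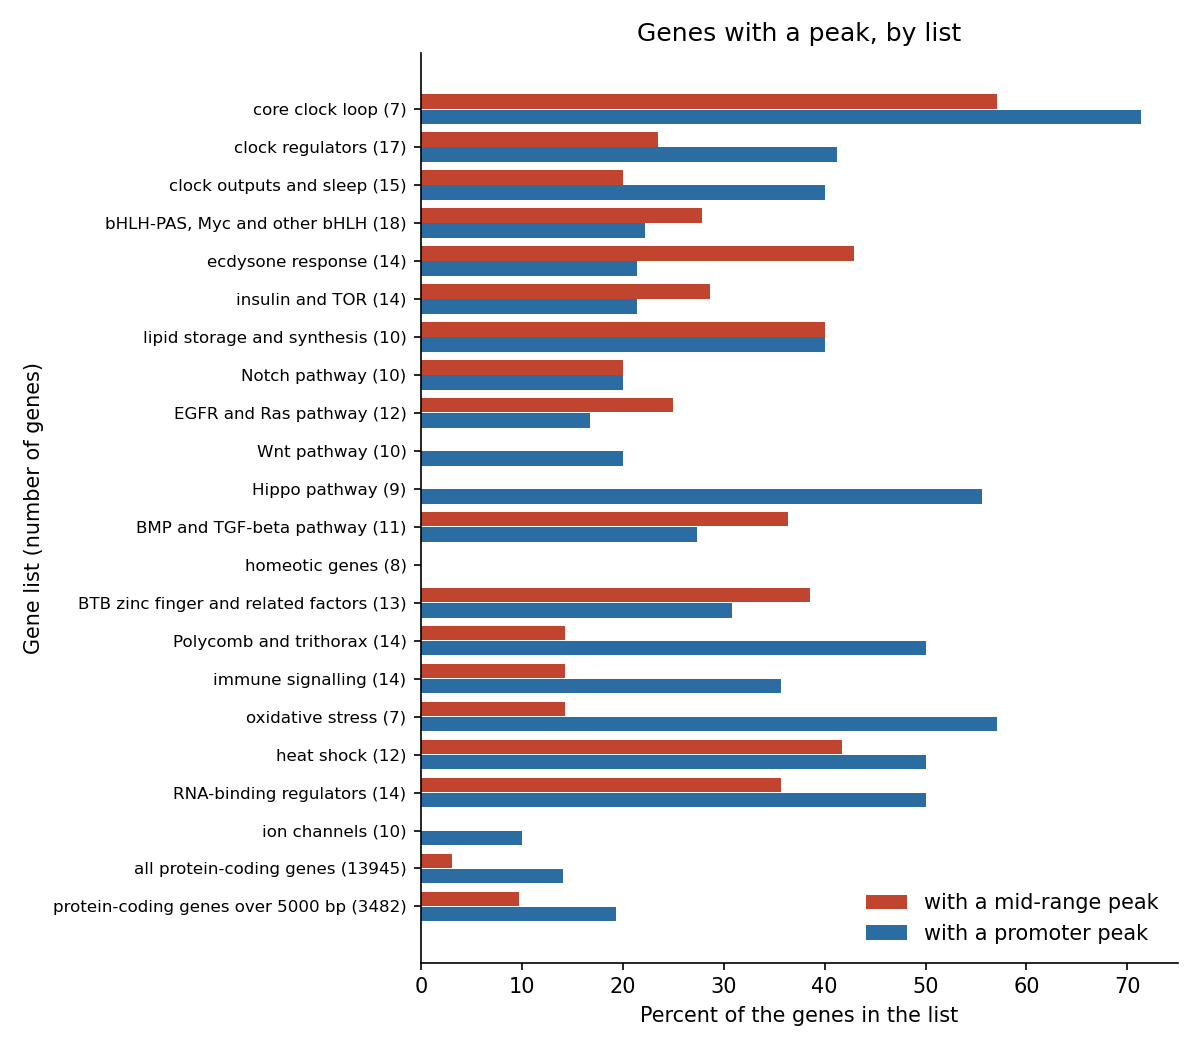
Percent of the genes of each list with a mid-range peak (red) and with a promoter peak (blue), with the number of genes in brackets. All protein-coding genes stand at 3.05% and 14.1%, and those over 5000 bp at 9.74% for mid-range peaks, while core clock loop genes stand at 57.1% and 71.4%.

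Genes with a mid-range peak were long and had several starts. The 425 protein-coding genes had a median length of 12754 bp (quartiles 5801 and 25497) against 2166 bp for all protein-coding genes and 3186 bp for those with a promoter peak. More than 1 start site was annotated for 70.4% of them, against 26.5% and 45.2%. Of the 425, 163 had a promoter peak and 262 did not. Assignment to a surrounding gene favours long genes by construction.

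The E-box form CACGTG, the one meant below, was rare at mid-range summits. CAGCTG, another form, was at 4.74% of summits and at 5.57% and 5.36% of flanks. Other forms entered only the count of all 6-mers below. CACGTG, which is its own reverse complement, lay within 50 bp of 5 of 485 summits, or 1.03%, where the whole list had 1.34%. Flanking windows of equal width, centred 400 bp away, had 2.06% on the left and 1.86% on the right, so that the summits were the lower by 1.03 and 0.825 points (exact two-sided McNemar test, p = 0.302 and p = 0.424). Promoter peaks had 1.07% (difference -0.0423 points, -0.912 to 1.38, Fisher's exact test, adjusted over 2 comparisons p = 1.00) and distal peaks 2.78% (difference -1.75 points, -3.97 to 0.0746, adjusted p = 0.148). Weaker candidates in the mid-range band had 1.49%. With counts this small, differences of the size of these intervals were not detectable. The 5 peaks ranked 551 (brk), 1172 (Pdp1), 1406 (B4), 2176 (ckn) and 2400 (CG5151) in the list, and all 5 summits were intronic. The brk values were 138 and 30.8 in the replicates.

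Mid-range and promoter summits differed in sequence in both directions. Each 6-mer was counted together with its reverse complement, over all 6-mers. Between mid-range and promoter summits 18 differed, or 0.865% of all 6-mers (Fisher's exact test, Benjamini-Hochberg threshold 0.05), 11 higher at mid-range summits and 7 lower. CGATAG was at 0.825% of mid-range and 10.7% of promoter summits (difference -9.91 points, -11.6 to -7.99, Fisher's exact test, adjusted p = 1.25e-12). TATCGA was at 4.12% and 11.4% and ATCGAT at 2.47% and 8.65% (Fisher's exact test, adjusted p = 4.14e-04 for both). TATCGA and ATCGAT overlap in TATCGATA, which does not contain CGATAG and which none of the 485 windows held. A count of 0 allows up to 3 counts here, a share of 0.619%, and the exact interval used elsewhere reached 0.758%. Promoter windows had 3.35% and the whole list 2.23%.

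CGATAG was less frequent away from the start within the promoter class itself. It was at 18.4% of summits within 100 bp of a start, at 3.27% of those beyond 100 and up to 200 bp, at 5.32% of those beyond 200 and up to 500 bp, at 0 of 257 in the first mid-range band, at 4 of 228 or 1.75% in the rest of the mid-range and at 1.77% of distal summits. Intronic promoter peaks had 5.56% and intronic mid-range peaks 0.548%. Distance and place in the gene were not tested apart.

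Of the 6-mers higher at mid-range than at promoter summits, CTGTAC was at 6.19% against 2.08% (Fisher's exact test, adjusted p = 0.0122) and ACTGTA at 9.90% against 5.11% (adjusted p = 0.0449). The other 9 were mostly rich in G and C, such as GAGGGA at 5.77% and 2.02% and CCCTCG at 4.54% and 1.33% (Fisher's exact test, adjusted p = 0.0168 for both). In mid-range flanks GAGGGA was at 4.12% on each side and CCCTCG at 3.30% and 1.86%. In promoter flanks both were above their promoter summits, GAGGGA at 2.59% and 2.71% and CCCTCG at 3.03% and 2.34%. Among the 18, CGATAG and TATCGA, and likewise ATCGAT and AACACT, were also called with windows of 100 bp to each side and at the summits of each replicate alone. CTGTAC and ACTGTA were called with the wider windows and at the summits of replicate 1 but not at those of replicate 2. In the stronger part of the list CGATAG alone was called. Against distal summits 0 6-mers differed, or 0% (Fisher's exact test, smallest adjusted p = 0.712, 77 at unadjusted p below 0.05).

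At mid-range summits against their own flanks 0 6-mers were called higher and 0 lower, or 0% in each direction (exact McNemar test against the flank nearer to the summit share, 14 and 25 beyond both flanks at unadjusted p below 0.05, smallest adjusted p = 0.110 and 0.115). The one nearest to the threshold was ACAGTG, at 11.1% of summits (8.48 to 14.3) against 4.74% and 3.92% of flanks. ACAGTG was uneven farther out, at 2.27% and 5.57% of windows 500 and 600 bp to the left and 7.01% at both distances to the right. With windows of 100 bp to each side it was at 21.0% against 8.87% and 9.48% and was called (exact McNemar test, adjusted p = 0.00106), as were ACTGTA at 19.0% against 9.48% and 8.45% (adjusted p = 0.00809) and CTGTAC at 11.8% against 4.74% in each flank (adjusted p = 0.00725). In the wider windows CTCGTC was called lower, at 1.65% against 7.42% and 6.39% (exact McNemar test, adjusted p = 0.0471).

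ACAGTG, read on its other strand, ACTGTA and CTGTAC overlap one another, and their values were followed further after they were seen, with no test. ACAGTG was at 8.33% of promoter and 11.4% of distal summits, at 9.38% of the whole list and at 5.37% of weaker candidates in the mid-range band. The 7-mer CACTGTA was at 24 of 485 mid-range summits, or 4.95% (3.20 to 7.27), and at 0.619% of either flank. Promoter summits had 1.96%, distal summits 3.80%, all peaks 2.84% and weaker candidates in the band 1.41%.

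**Figure D5:**
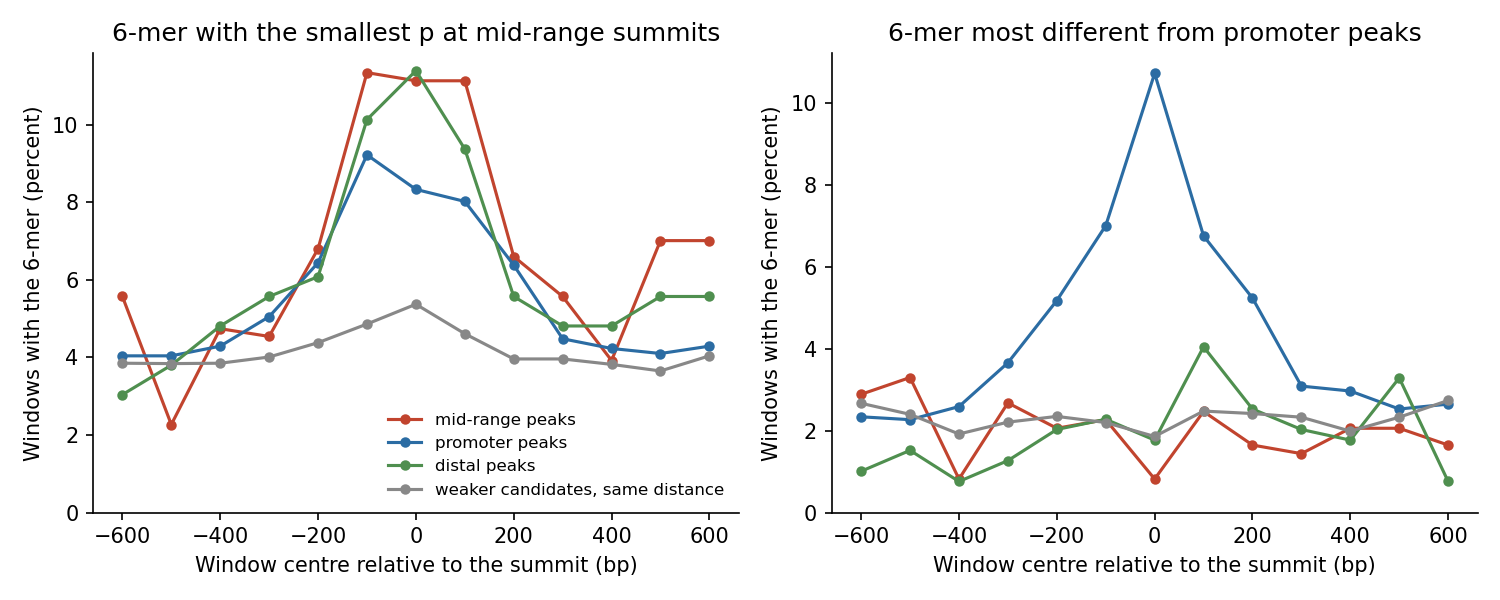
Percent of windows, each reaching 50 bp to either side of its centre, that hold ACAGTG (left) or CGATAG (right) on either strand, by position of the window centre from 600 bp left to 600 bp right of the summit. ACAGTG was at 11.3%, 11.1% and 11.1% of mid-range windows centred 100 bp left of, on and 100 bp right of the summit and at 6.80% and 6.60% of those 200 bp away. From 300 to 600 bp away its share ran from 2.27% to 7.01%. CGATAG stood at 10.7% of promoter windows on the summit and at 0.825% of mid-range ones.

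Base composition differed less between the summit and flanks centred 400 bp away than at promoters. G and C made up 39.6% (SD 10.3, n = 485 peaks) at mid-range summits against 41.6% and 41.1% in the flanks, a mean difference of -1.71 points. The summit was the poorer in 284 peaks and the richer in 200, with 1 tie (exact sign test, two-sided, p = 1.56e-04). At promoter peaks the mean difference was -6.23 points and at distal peaks -1.59. Nearer flanks gave no such difference between classes, which was not tested. In narrower windows mid-range peaks had 38.53% at the summit and 42.23% and 43.57% 200 bp to the left and right. Promoter peaks had 37.89%, 41.66% and 42.37% there, and distal peaks 39.28%, 43.43% and 44.33%. The 6-mer comparisons did not adjust for composition, and its part in them was not tested.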

How the data were processed

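ChIP-seq peak lists of build dm6 from 2 biological replicates of 1 group were used. The deposited signal value of each region, its summit and the region lists are the authors' own. Candidate regions were listed per replicate and on pooled reads, 30000 each, and the list of 2464 reproducible peaks passed their irreproducible discovery rate step, per the accompanying notes. The sources used here name neither aligner nor peak caller, and no threshold. Depth is unknown, and the signal is on its own scale in each library. Lists on build dm3 were not used here.

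Distances were taken to 23584 start sites of the Ensembl annotation, after leaving out 5809 of transposable elements. Places in genes follow the same annotation, and sequence was read from the RefSeq Release 6 assembly. A replicate supported a peak when a candidate summit lay within 150 bp. Motif windows were centred on the summit and reached 50 bp either way, and flanks were centred 400 bp away. All 2080 6-mers, each merged with its reverse complement, were tested. Shares carry 95% Clopper-Pearson intervals and differences Newcombe intervals. Fisher's exact, exact McNemar and exact sign tests were two-sided, with Benjamini-Hochberg adjustment. Peaks are not replicates, so p-values cover counting over peaks in these 2 samples. The code was tested on simulated data. Tests ran in SciPy 1.17.1 under Python 3.11.15, with tables in pandas 2.3.3 and NumPy 2.4.6 and figures from matplotlib 3.10.9.

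A gene held a peak when its start was nearest or when it surrounded the summit. Of the genes in 20 lists, sss, Tor and Dl were not matched by symbol. The genes named were those of the 20 strongest mid-range peaks with a candidate in each replicate, all peaks in clock lists, up to 4 of the strongest in each other list, the 5 genes with most peaks, the peaks next to each limit and those with CACGTG. Genes named beyond these, such as Myc, psq, Dif and the coding-exon genes, were chosen after their values were seen. The members and lists were chosen with earlier results of these data known. Alternatives changed the start sites, the peak threshold, the window, the distance that counts as support and the replicates.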

Additional observations from a re-analysis of the deposited data

How the results depend on the processing

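Of 79 alternatives over 16 results, 63 kept the result. For tests this meant the direction and the side of the threshold, for counts a similar number, and for the intron share a value within its main interval. For the peak count and intron share, leaving 1 replicate out meant using the strongest candidates of the other, as many as the list holds. Elsewhere the list chosen from both replicates was kept, and only the ranks, candidates or summits of 1 replicate were used. The 485 mid-range peaks became 214 in the stronger part of the list and 476 to 520 with 1 replicate left out. Support in both replicates against promoter peaks, called at -6.33 points, was 0.153 with the strongest 5000 candidates, -1.29 in the stronger part of the list, -5.40 with starts of protein-coding genes and -4.58 to -3.56 with 1 replicate left out, none of them called. Uncalled differences that changed sign were support against distal peaks within 75 bp (-1.69 points), the share of strong peaks against distal peaks (-0.133 to 4.0 with 1 replicate left out) and the E-box against promoter peaks (0.00218 in the stronger part of the list, 0.0391 with starts of protein-coding genes). With windows of 100 bp to each side, 3 6-mers were higher and 1 lower at summits than flanks, where none was called before, and 77 rather than 18 differed from promoter peaks. That count was 1 in the stronger part of the list and 8 to 10 with 1 replicate left out. Fewer peaks enter the stronger part of the list by construction, and the cause of the other changes was not tested. CGATAG was called in every alternative run, at -14.0 to -8.40 points, and the intron share ran from 71.9% to 77.6%. The alternatives for the intron share, for CGATAG and with starts of transposable elements (494 peaks) were chosen after seeing the data. No paired analysis was possible because the study has 1 group. Depth was unknown, and the weakest values of replicate 2 lay near the bottom of its candidates.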
